A study of Mus musculus with 4 samples.

Results

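Smooth muscle contractile genes were read here as 10 genes fixed by name: the isoactins Actg2 and Acta2, the thin filament proteins Cnn1, Tagln and Lmod1, the myosin genes Myh11, Myl9 and Mylk, and the intermediate filament genes Des and Synm. All 10 were found among 18193 genes on the array, on 17 probe sets whose annotated symbol was exactly one of these names, and the brightest probe set by mean level stood for each gene. The study injected tamoxifen, a selective estrogen receptor modulator, into the peritoneum of mice to induce spasmolytic polypeptide-expressing metaplasia, and measured RNA of gastric corpus epithelium on 1-colour Affymetrix arrays. There were 4 groups: tamoxifen after 12 hours, tamoxifen after 2.5 days, tamoxifen after 4.5 days and vehicle after 2.5 days. All mice were wild type and 6 weeks old at treatment, and the dose was 5 mg per 20 g of body weight in 10% ethanol and 90% sunflower seed oil. The study as a whole lists FVB/N, BALB/c and C57BL/6 mice, and no label ties one to an array. Injection went on for a single day or for more days, and which array had which is not stated.

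Each group was 1 array of RNA pooled from 3 mice, so the spread between mice is unknown and no test across samples could be made. The lone vehicle array, taken at 2.5 days, is shared by the 3 comparisons with tamoxifen. Values are log2 RMA expression, and a difference of 1 is 2-fold. Array medians lay between 5.30 and 5.34. Over 18 hybridisation controls, which are added after the RNA is labelled, the largest difference from vehicle in size was 0.20 at 12 hours, 0.31 at 2.5 days and 0.29 at 4.5 days, and these values serve as a gauge of technical error. Over the poly-A controls, which are added to the RNA before amplification, it was 0.64, 0.28 and 0.72.

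Smooth muscle contracts when calcium bound to calmodulin activates myosin light chain kinase, which phosphorylates the regulatory light chain of myosin and lets its heads pull on actin filaments. Calponin, transgelin and leiomodin lie along or build the thin filaments, and desmin and synemin tie the contractile apparatus to the cell's dense bodies and membrane. In the stomach these genes are known for the muscularis externa, for the thin muscularis mucosae under the glands and its strands between them, and for the walls of vessels. The labels name the tissue as epithelium, which is not itself known for this set. All 10 genes lay above the array median on all 4 arrays, and Acta2 stood at 13.71 in vehicle, where the highest probe set of that array was at 14.75. The 8 epithelial markers listed (among them Krt8, Krt18 and Krt19) were above the array median as well.

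Many of these genes are known targets of serum response factor, which binds the CArG box. Promoter windows of 300 bases (250 before the annotated start and 50 from it onward) were at hand for 7 of the 10 genes, from RefSeq on GRCm38.p6. They were searched on both strands for the CArG box, which reads alike on either, and for sequences of its 10 letters that depart from it in 1. Myl9 held 1 full box, against 1.63% of all 32851 promoter windows, and 4 of 7 windows held at least 1 sequence with 1 departure or none, against 21.1% of all windows. The windows with a match are shown so that the matches can be read in place. Acta2 lies at chr19:34255324-34255623 on the minus strand, Lmod1 at chr1:135324563-135324862 on the plus strand, Myl9 at chr2:156775214-156775513 on the plus strand and Synm at chr7:67759693-67759992 on the minus strand. Each is written 5′ to 3′ along its gene, and capitals mark the matches.
Acta2: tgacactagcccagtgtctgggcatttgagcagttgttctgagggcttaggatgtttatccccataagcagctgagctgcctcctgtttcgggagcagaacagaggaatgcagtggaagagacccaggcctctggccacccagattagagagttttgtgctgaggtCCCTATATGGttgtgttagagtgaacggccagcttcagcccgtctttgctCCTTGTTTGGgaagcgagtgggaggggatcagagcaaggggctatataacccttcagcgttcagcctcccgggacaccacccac
Lmod1: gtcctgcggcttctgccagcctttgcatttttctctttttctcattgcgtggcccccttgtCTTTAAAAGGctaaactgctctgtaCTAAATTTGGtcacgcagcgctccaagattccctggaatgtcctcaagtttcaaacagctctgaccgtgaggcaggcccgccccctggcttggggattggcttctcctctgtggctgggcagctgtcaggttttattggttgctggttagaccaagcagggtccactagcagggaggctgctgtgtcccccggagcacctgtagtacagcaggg
Myl9: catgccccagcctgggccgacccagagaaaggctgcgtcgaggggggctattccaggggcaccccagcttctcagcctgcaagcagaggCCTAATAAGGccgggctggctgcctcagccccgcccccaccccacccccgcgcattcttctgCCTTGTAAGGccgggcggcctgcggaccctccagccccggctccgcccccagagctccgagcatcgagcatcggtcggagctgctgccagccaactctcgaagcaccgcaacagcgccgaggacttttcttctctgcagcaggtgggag
Synm: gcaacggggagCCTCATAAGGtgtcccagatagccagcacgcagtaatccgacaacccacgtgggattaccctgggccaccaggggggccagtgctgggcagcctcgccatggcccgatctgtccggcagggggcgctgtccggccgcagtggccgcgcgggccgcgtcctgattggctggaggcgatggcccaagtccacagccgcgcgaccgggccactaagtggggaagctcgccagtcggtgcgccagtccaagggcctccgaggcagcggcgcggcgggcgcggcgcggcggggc
Counted from the annotated start, the matches of Acta2 begin 84 and 34 bases before it, those of Myl9 161 and 99 bases, those of Lmod1 189 and 164 bases and that of Synm 239 bases. The full box of Myl9 is the one at 161 bases. The windows of Cnn1, Mylk and Des held no match, which says only that these letters are not in these windows. The 3 remaining genes are Actg2, Tagln and Myh11.

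As a group the contractile genes were lower on every tamoxifen array than on the vehicle array. Their median difference was -0.35 at 12 hours, -0.60 at 2.5 days and -0.64 at 4.5 days, which is 78.2%, 65.9% and 64.0% of the vehicle level. The medians over all expressed genes were -0.04, 0.02 and -0.01. Any decrease at all was seen for 9 of 10 members at 12 hours, against 55.4% of expressed genes, for 10 of 10 at 2.5 days, against 47.3%, and for 10 of 10 at 4.5 days, against 50.4%. On pooled tissue RNA, fewer muscle cells in the pool and less of these RNAs per muscle cell cannot be told apart.

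A decrease of at least 1.5-fold was reached by 1 of 10 members at 12 hours, Actg2, against 5.66% of 12253 expressed genes. At 2.5 days it was reached by 5 of 10, which were Actg2, Cnn1, Tagln, Des and Synm, against 6.03% of 12295 expressed genes. Myh11 lay just outside at -0.58. At 4.5 days it was reached by 6 of 10, which were Actg2, Cnn1, Myh11, Myl9, Des and Synm, against 8.21% of 12303 expressed genes. A 2-fold decrease was reached by Synm at 4.5 days, against 2.72% of expressed genes, and by no other member there. At 12 hours and 2.5 days it was reached by 0 of 10 members, against 1.92% and 1.94% of expressed genes, with Synm just short of it at 2.5 days. No member was 1.5-fold higher at any of the 3 times, against 3.37%, 9.69% and 10.7% of expressed genes. The counts of members 1.5-fold lower depend on the scaling of the arrays, which moves all genes alike. With each array centred on the median of its hybridisation controls they were 3, 3 and 1, against 10.6%, 3.40% and 4.09% of expressed genes, and centred on the median of the epithelial markers they were 9, 9 and 10, against 35.7%, 18.9% and 19.9%.

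**Figure D1:**
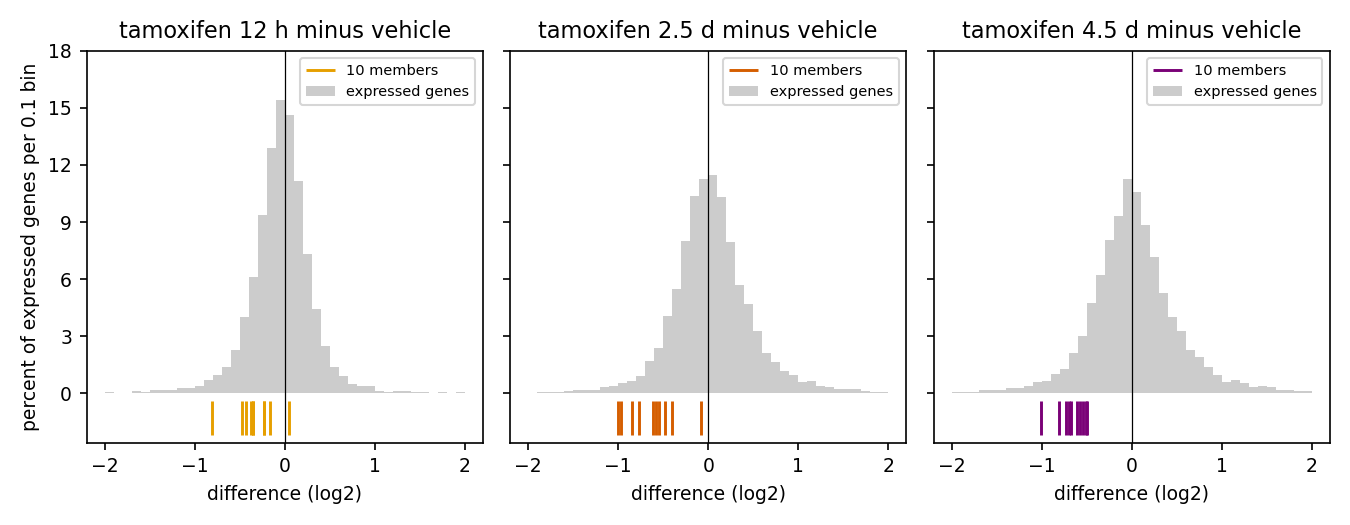
Differences from vehicle (log2, horizontal axis) for all expressed genes as grey bars (percent of genes per 0.1 bin, vertical axis) with the 10 contractile genes as coloured ticks below, for the 3 times after tamoxifen. The ticks lie left of 0 except that of Lmod1 at 12 hours, and at most 0.80% of expressed genes fall outside the axis.

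Set against the hybridisation controls, 8 of 10 members at 12 hours were lower than vehicle by more than the largest control difference, against 26.5% of expressed genes. At 2.5 days 9 of 10 were, against 17.0%, and at 4.5 days 10 of 10, against 22.5%. The poly-A gauge was exceeded by 1 member at 12 hours (Actg2), against 4.60% of expressed genes, by 9 at 2.5 days, against 19.5%, and by 3 at 4.5 days (Actg2, Myh11 and Synm), against 5.41%. Genes as bright as most members showed no such common difference: over 1499 genes with a mean of at least 10, the median differences were -0.02, 0.04 and 0.03. Of these bright genes 4.0%, 5.27% and 6.87% were at least 1.5-fold lower. The 7 contractile genes of that brightness had medians of -0.35, -0.58 and -0.68, with 1, 3 and 4 of them at least 1.5-fold lower.

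Actg2, the enteric isoactin typical of gut smooth muscle, had a level of 11.61 at 12 hours, 11.46 at 2.5 days and 11.61 at 4.5 days of tamoxifen, against 12.42 in vehicle. Its differences were -0.81, -0.96 and -0.81, so that it stood at 57.0%, 51.3% and 57.1% of vehicle. It was the member with the largest decrease at 12 hours, and its 3 tamoxifen levels lay within 0.15 of each other. The single probe set that reads it is of the kind shared by transcript variants of the same gene.

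Acta2, the vascular isoactin also made by pericytes and myofibroblasts, had 13.35, 13.23 and 13.21 in time order, against 13.71 in vehicle. The differences were -0.35, -0.48 and -0.50. All 3 probe sets of the gene were lower than vehicle at all times, the others by 0.42, 0.33 and 0.56 and by 0.13, 0.25 and 0.38. The dimmest of them lay near or under the array median. The probe set with the highest mean is of a kind whose probes can match more than 1 gene, and RMA is known to compress differences near the top of the scale.

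**Figure D2:**
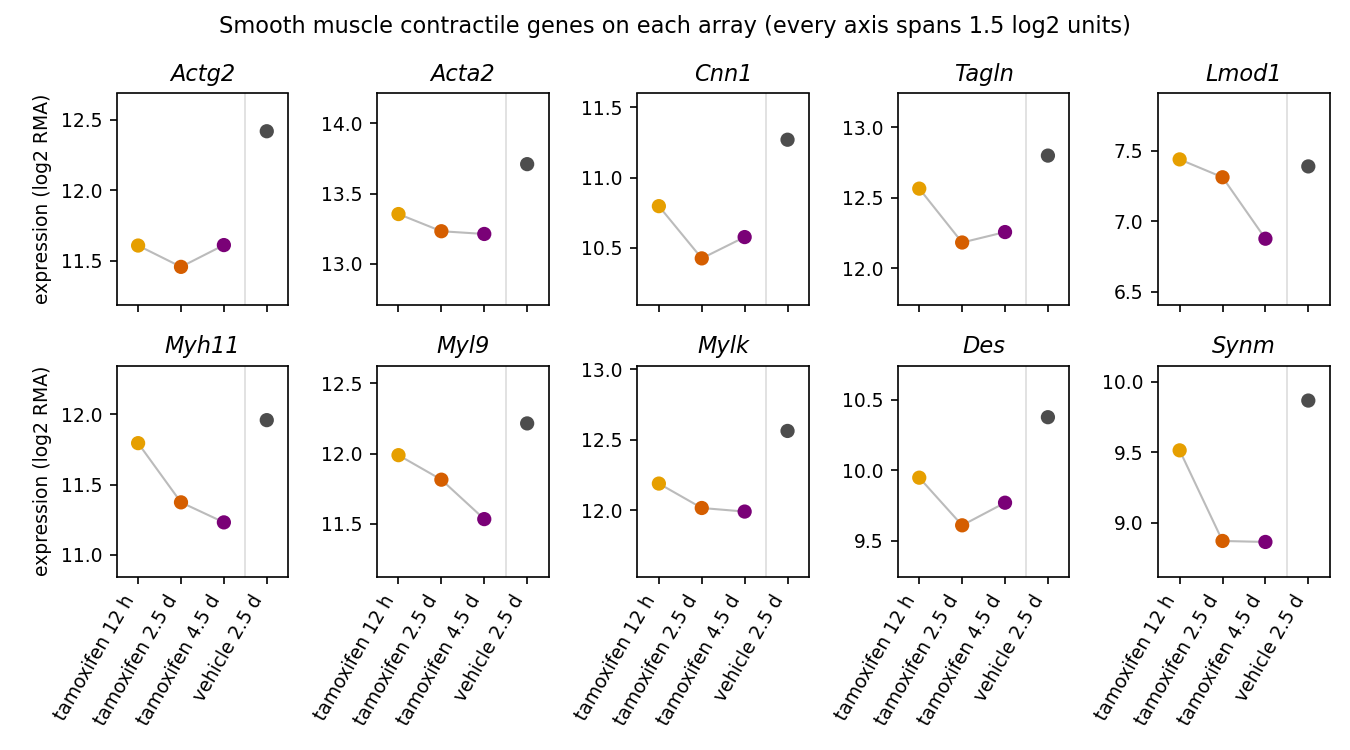
Expression (log2 RMA) of each contractile gene on the 3 tamoxifen arrays, joined by a line, and on the vehicle array, 1 array per point; every vertical axis spans 1.5 log2 units. Vehicle is the highest point for 9 of 10 genes, the exception being Lmod1.

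Among thin filament genes, Cnn1, which encodes calponin, an actin-binding protein that restrains the myosin motor, had levels of 10.80, 10.43 and 10.58, against 11.27 in vehicle. The differences were -0.47, -0.84 and -0.69. Tagln, which encodes the actin-bundling protein transgelin, had 12.56, 12.18 and 12.26, against 12.80 in vehicle. Its differences were -0.23, -0.62 and -0.54. Both were lowest at 2.5 days, and for both the 12-hour array lay between vehicle and the later arrays.

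Lmod1, leiomodin, which starts new actin filaments in smooth muscle, was the member with the smallest differences at 12 hours and 2.5 days. It had 7.44, 7.31 and 6.88 at the 3 times, against 7.39 in vehicle. The differences were 0.05, -0.08 and -0.51, of which the first pair lay within the hybridisation gauge. It was read by 1 probe set, so no second reading stands beside these values.

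Myh11, the heavy chain of smooth muscle myosin and the most restricted marker of this cell type in the set, had 11.79, 11.37 and 11.23, against 11.96 in vehicle. Its differences were -0.16, -0.58 and -0.73. A second probe set gave -0.06, -0.46 and -0.71. At 12 hours both were within the hybridisation gauge, and at 2.5 and 4.5 days both were beyond it.

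Myl9, the regulatory light chain on which contraction turns, had 11.99, 11.81 and 11.53, against 12.21 in vehicle, with differences of -0.23, -0.40 and -0.68. Mylk, the kinase that phosphorylates that chain, had 12.19, 12.01 and 11.99, against 12.56 in vehicle, with differences of -0.37, -0.55 and -0.57. Its other probe sets gave -0.42, -0.59 and -0.83, and -0.25, -0.46 and -0.54. Mylk also has long forms known from other cell types, so its RNA need not all come from muscle. For all 3 myosin genes the order of levels was the same, lowest at 4.5 days, then 2.5 days, then 12 hours and highest in vehicle. For the brightest Mylk probe set the levels at 4.5 and 2.5 days differed by 0.03, well within the hybridisation gauge for that pair of 0.14. Its other probe sets were lower at 4.5 than at 2.5 days, at -0.24, beyond that gauge, and at -0.08, within it.

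Des, desmin, the main intermediate filament protein of muscle, had 9.95, 9.61 and 9.77, against 10.38 in vehicle. The differences were -0.43, -0.77 and -0.61. A second, dim probe set at 5.49 in vehicle gave -0.32, -0.48 and -0.24. Synm, synemin, which joins desmin filaments to the membrane, had 9.51, 8.87 and 8.86, against 9.87 in vehicle, with differences of -0.35, -0.998 and -1.005. Its other probe set gave -0.71, -0.86 and -0.98. Synm thus stood at 50.1% and 49.8% of vehicle at 2.5 and 4.5 days, the lowest share among the members at both times, while its probe sets disagreed most at 12 hours.

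**Figure D3:**
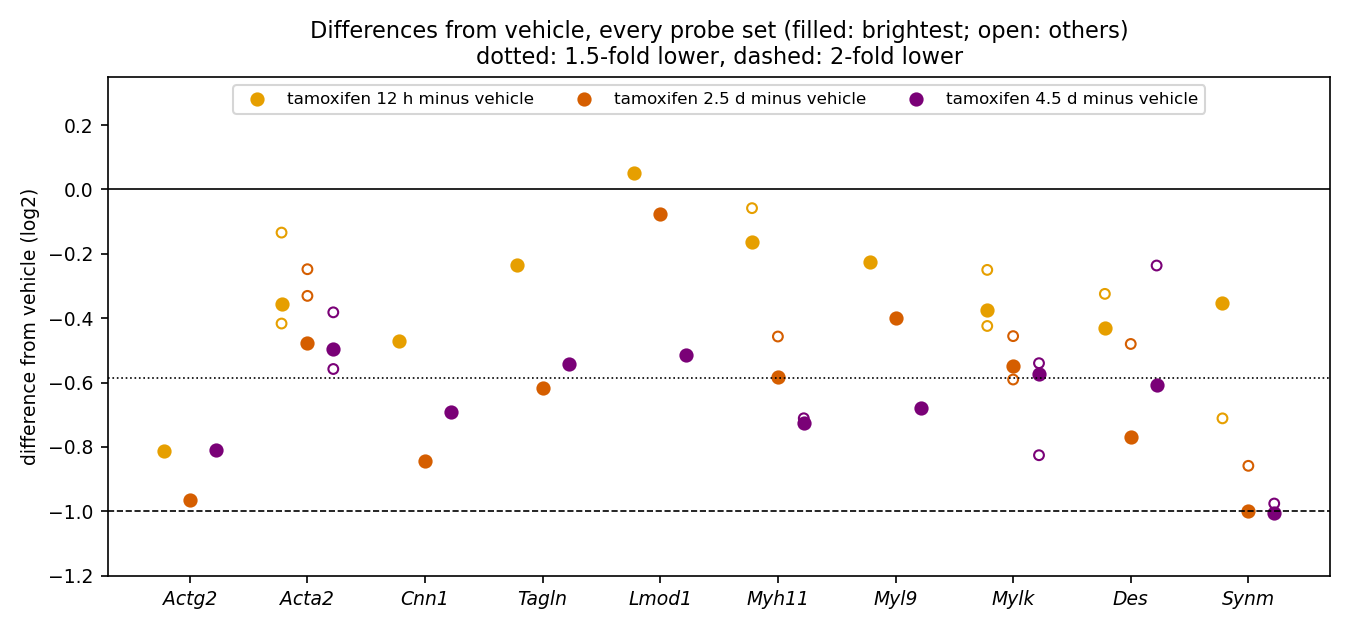
Difference from vehicle (log2) for each of the 17 probe sets of the 10 genes, in colours for the 3 times; filled points are the brightest probe set of a gene and open points its others. At 2.5 and 4.5 days every point lies below 0, and at 12 hours 16 of 17 do.

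The range over members was wider at the early times than at 4.5 days, with Lmod1 alone at its upper end at both early times. Their differences ranged from -0.81 to 0.05 at 12 hours, from -0.998 to -0.08 at 2.5 days and from -1.005 to -0.50 at 4.5 days. These are ranges of 0.86, 0.92 and 0.51. Lmod1 set the upper end of the range at 12 hours and 2.5 days, and Acta2 at 4.5 days.

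Between the tamoxifen arrays, all 10 members were lower at 2.5 days than at 12 hours, with a median of -0.26, against 40.4% of expressed genes lower at all and a median of 0.06 over them. Of the 17 member probe sets 16 were lower, and an Acta2 probe set was at 0.09. By their brightest probe sets, the differences of Synm and Myh11, -0.64 and -0.42, exceeded the largest hybridisation control difference of that pair, 0.41. This was so for 5.50% of expressed genes in this direction. The other probe sets of Synm and Myh11 gave -0.15 and -0.40, within that control difference. One member, Synm, was at least 1.5-fold lower by its brightest probe set alone, against 2.28% of expressed genes. With each array centred on the median level of its hybridisation controls, the median of the members was 0.09 and that of expressed genes 0.41. That scaling shifts this pair by -0.35, whereas the median of the control differences was -0.16 and their mean -0.17. Centred on that mean, the median of the members was -0.083. The members' median minus that of all expressed genes was -0.32 with or without these scalings. The 12-hour array is also the one that stands apart in RNA of other tissues, as given below.

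Between 4.5 and 2.5 days the median of the members was -0.01, and over expressed genes -0.02. Here 6 members were lower and 4 higher, against 56.2% of expressed genes lower. Actg2, Cnn1 and Des were higher by 0.15, 0.15 and 0.16, just past the hybridisation gauge of 0.14, which 14.6% of expressed genes passed upwards. Lmod1, Myl9 and Myh11 were lower by more than it, at -0.44, -0.28 and -0.14, as were 22.5% of expressed genes, so that 3 of 10 members in each direction is not far from the share of all genes. The other 4 members, Acta2, Tagln, Mylk and Synm, were within it by their brightest probe sets. Another probe set of Acta2 was at -0.23 and another of Mylk at -0.24, both beyond it, so this tally depends on the probe set read. No member passed 1.5-fold in either direction, against 1.17% of expressed genes lower and 0.933% higher.

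Other parts of the contractile apparatus had medians below vehicle too, by less than the members. Of 20 listed genes 19 were measured, with medians of -0.10, -0.30 and -0.36 at the 3 times. The number at least 1.5-fold lower was 0, 3 and 3, against 5.66%, 6.03% and 8.21% of expressed genes. None was 1.5-fold higher, against 3.37%, 9.69% and 10.7%. The 3 brightest were the tropomyosins Tpm1 and Tpm2, which wind along actin filaments, and Cald1, caldesmon, an actin and myosin binding protein. Tpm2 had 13.13, 12.99 and 12.88, against 13.41 in vehicle. Tpm1 had differences of -0.30, -0.61 and -0.51 and Cald1 of -0.21, -0.42 and -0.36. Named after their values were seen, the others past 1.5-fold were Smtn (smoothelin) and Synpo2, an actin-binding protein of muscle, at both later times, with differences of -0.85 and -0.79 at 2.5 days and -0.93 and -0.94 at 4.5 days, and the small heat shock gene Hspb6 at 4.5 days with -0.69. Over the whole list the differences ranged from -0.57 to 0.29 at 12 hours, from -0.85 to 0.21 at 2.5 days and from -0.94 to 0.54 at 4.5 days. Lower than vehicle were 13, 15 and 16 of the 19 genes, against 55.4%, 47.3% and 50.4% of expressed genes. Cnn2 (0.01, 0.21 and 0.54), Actn1 (0.29, 0.08 and 0.35) and Tpm4 (0.18, 0.17 and 0.10), also named after their values were seen, were higher throughout.

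Genes of calcium handling and of the kinases and phosphatases that set contraction, 17 of 20 measured, had medians of -0.11, -0.10 and -0.21. At least 1.5-fold lower were 0, 2 and 3 of them, against 5.66%, 6.03% and 8.21% of expressed genes. Pln, phospholamban, which restrains the calcium pump of the sarcoplasmic reticulum, had 8.49, 7.92 and 7.86, against 9.07 in vehicle. Its differences of -0.58, -1.14 and -1.21 were larger at both later times than those of any contractile member, and its other probe sets gave -0.34, -0.86 and -1.03, and -0.32, -0.92 and -0.99. The others past 1.5-fold, named after their values were seen, were Ppp1r12b, a myosin phosphatase subunit, at -0.79 and -0.77, and at 4.5 days Gucy1a1, a subunit of the nitric oxide receptor, at -0.65. Of the 3 brightest genes of this list, Atp2a2 was at -0.27, 0.06 and 0.09, Ppp1cb at -0.02, -0.06 and -0.11, and Rhoa at 0.19, 0.021 and -0.003. The next brightest Atp2a2 probe sets were at -0.16, -0.18 and -0.35 and at -0.11, -0.11 and -0.15, so its sign at the later times depends on the probe set.

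Transcription factors of the smooth muscle programme, 10 of 10 measured, had medians of -0.08, -0.05 and -0.20, and none passed 1.5-fold in either direction on any array. Of expressed genes 5.66%, 6.03% and 8.21% were at least 1.5-fold lower and 3.37%, 9.69% and 10.7% higher. Srf, serum response factor, had 8.02, 8.09 and 8.03, against 8.31 in vehicle, and Myocd, its smooth muscle coactivator myocardin, had 5.84, 5.94 and 5.79, against 6.16 in vehicle. The brightest of the list were Klf4 at -0.08, -0.08 and -0.01, Gata6 at -0.11, 0.08 and -0.19 and Mrtfb at 0.43, 0.35 and 0.12. Srf and Myocd are named for their role at the CArG box, after their values were seen.

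Cell types that share space or genes with smooth muscle were read from marker lists. Pericyte markers, 7 of 7 measured, had medians of 0.18, 0.03 and -0.10, and their brightest, Rgs5, had 11.93, 11.59 and 11.62, against 11.95 in vehicle. Pdgfrb and Abcc9, the next, were at 0.50, 0.11 and 0.20 and at 0.18, 0.21 and 0.37. Named after their values were seen, Kcnj8 was at 0.51, 0.95 and 0.84 and Mcam at -0.36, -0.45 and -0.34. Of the pericyte markers Kcnj8 alone passed 1.5-fold, upwards at 2.5 and 4.5 days, against 9.69% and 10.7% of expressed genes. Fibroblast markers, 7 of 7, had medians of -0.37, -0.04 and 0.12, with Col1a2 at -0.21, 0.07 and 0.22, Col3a1 at -0.38, -0.04 and 0.12, Dcn at 0.00, -0.10 and -0.20 and Lum at -1.05, -0.12 and -0.10. Endothelial markers, 6 of 6, had medians of 0.07, -0.13 and -0.39, with Kdr at -0.66, -1.02 and -0.76, Esam at 0.21, 0.04 and 0.05 and Vwf at -0.50, -0.04 and -0.38. The summed level, as log2 of the sum of linear values, was 15.12, 14.88 and 14.87 for the contractile genes, against 15.48 in vehicle. It was 12.58, 12.35 and 12.40 for pericytes, against 12.51 in vehicle, and 14.16, 14.43 and 14.53 for fibroblasts, against 14.41 in vehicle. At 2.5 and 4.5 days, then, the contractile sum from brightest probe sets was lower by more than the pericyte sum, and the fibroblast sum was not lower. The fibroblast sum rests largely on Col3a1 and Col1a2. By gene, 4 of 7 fibroblast markers were lower at 2.5 days and 3 of 7 at 4.5 days, against 47.3% and 50.4% of expressed genes. Named after their values were seen, Col1a1 was at -0.41, 0.58 and 0.54, Pdgfra at 0.38, 0.43 and 0.59 and Fbln1 at -0.37, -0.47 and -0.35. The pericyte sum rests largely on the brightest probe set of Rgs5. The other Rgs5 probe sets were at -0.78, -0.34 and -0.38 at 2.5 days and at -0.63, -0.20 and -0.07 at 4.5 days.

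Cells that lie within the muscle layers gave mixed values. For interstitial cells of Cajal, the pacemakers of gut muscle, 2 of 3 markers were measured. Kit was at -0.12, -0.89 and -1.14 and its dim second probe set at 0.08, -0.18 and -0.43, whereas Ano1 was at 0.31, 0.47 and 0.65. Kit is also a mast cell gene and Ano1 is known from epithelia as well. Enteric neuron markers, 6 of 7 measured, had medians of 0.17, -0.12 and -0.40, and enteric glia markers, 3 of 5, of 0.09, -0.30 and -0.36. None of these neuron and glia genes passed 1.5-fold, save 1 neuron gene at 4.5 days, Prph at -0.60, named after its value was seen. The shares of expressed genes were 5.66%, 6.03% and 8.21% for 1.5-fold lower and 3.37%, 9.69% and 10.7% for 1.5-fold higher. Striated muscle markers, which share Des with smooth muscle, had medians of -0.19, -0.10 and -0.15 over 11 of 11. Only 6 of them were above the median of any array. The fast myosin gene Myh4, named after its values were seen, had 3.35, 3.34 and 3.25, against 3.40 in vehicle, and Ckm had 6.73, 6.74 and 6.65, against 7.28 in vehicle. Tnni2, which went the other way, was at 0.33, 0.57 and 0.36.

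Epithelial markers had medians above vehicle, but within or level with the hybridisation gauge of 0.20, 0.31 and 0.29. The 8 genes had medians of 0.19, 0.23 and 0.29, with Krt8 at 0.13, 0.16 and 0.22, Krt18 at 0.53, 0.30 and 0.36 and Krt19 at 0.02, 0.01 and 0.07. Their summed level was 15.87, 15.81 and 15.84, against 15.61 in vehicle. At 12 hours the pool also carried 7 pancreatic acinar genes with a median difference of 7.17 (summed level 15.58, against 11.39 in vehicle) and 7 squamous genes with a median of -5.32 (summed level 7.93, against 12.85 in vehicle). At 2.5 and 4.5 days the acinar medians were -0.36 and -0.47 (sums of 11.04 and 11.00) and the squamous medians -0.54 and -0.37 (sums of 12.13 and 12.28). Adipocyte markers, 2 of 4 measured, had medians of -0.29, -0.67 and -0.60, with Adipoq at -0.76, -1.07 and -1.05 and Fabp4 at 0.18, -0.27 and -0.14. Mesothelial markers, 4 of 4, had medians of -0.48, -0.12 and 0.55, the last with Msln at 2.26. Only 2 of them were above the median of any array. The part of these other tissues in the muscle values was not tested. The comparisons at 2.5 and 4.5 days do not use the 12-hour array, although all arrays were normalized together.

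**Figure D4:**
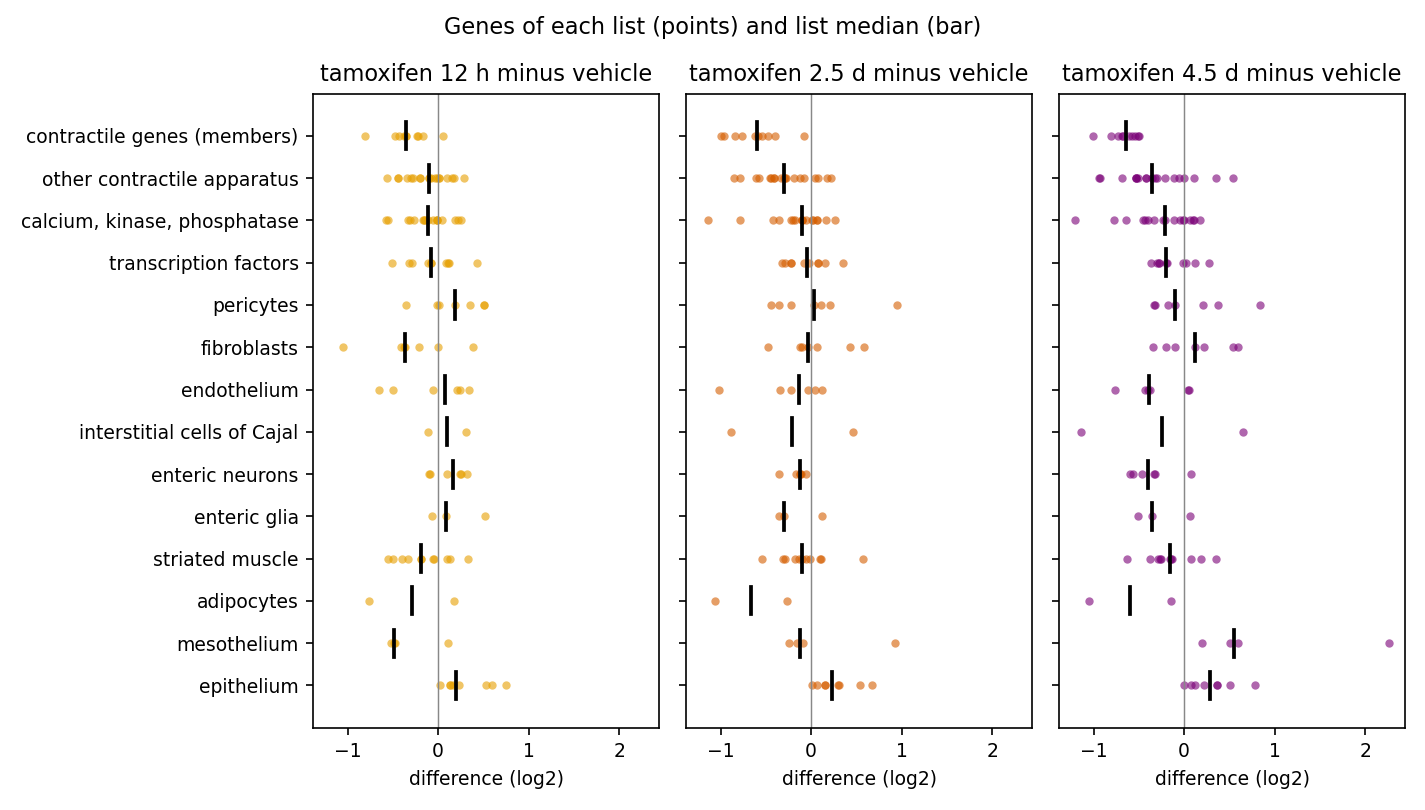
Differences from vehicle (log2) of single genes (points) and list medians (bars) for the contractile genes, their related lists and other cell types, with a panel for each time; pancreatic acinar and squamous genes are not drawn. The contractile medians are -0.60 and -0.64 at 2.5 and 4.5 days and the epithelial medians 0.23 and 0.29.

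Genes whose pattern over the 4 arrays was nearest to the mean pattern of the members were sought among 11398 other genes at or above the median on every array. Likeness was the root mean square distance between values centred on each gene's own mean. The nearest 8 were Arrb1 (0.010), Nat14 (0.012), Shroom1 (0.016), Zfp563 (0.022), Adamts5 (0.023), Tceal1 (0.024), Jph2 (0.025) and Cav1 (0.026). Jph2 is known from the calcium stores of muscle and Cav1 from the membrane caveolae of muscle, endothelium and fat. Jph2 had 7.84, 7.58 and 7.47, against 8.19 in vehicle, and Cav1 had 10.32, 10.00 and 10.02, against 10.69 in vehicle. With 4 points a near match is common: 221 of the 11398 genes lay within 0.086, the median distance of a member from the members' own mean. Among the listed smooth muscle genes the nearest were Itga8 (0.055), named after its values were seen, Tpm1 (0.060) and Tpm2 (0.079). The members themselves lay between 0.054 (Tagln) and 0.21 (Lmod1) from their mean.

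**Figure D5:**
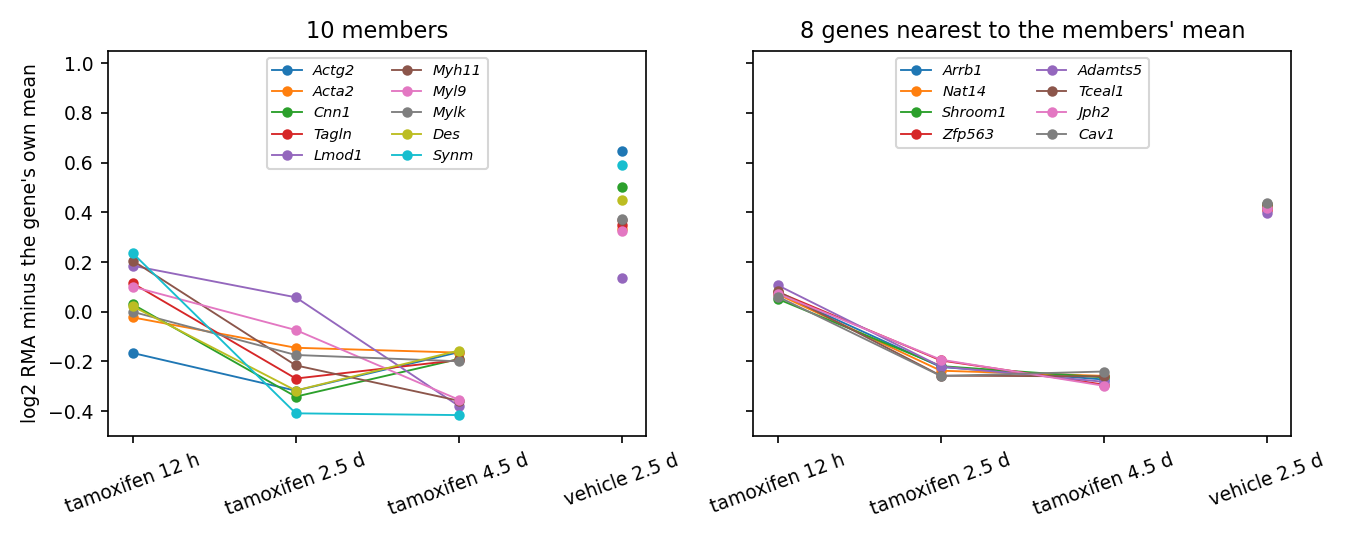
Values centred on each gene's own mean (log2 RMA, vertical axis) on the 3 tamoxifen arrays and vehicle, for the 10 contractile genes and for the 8 genes nearest to their mean pattern. The members' mean is at 0.07, -0.22 and -0.26 on the tamoxifen arrays and at 0.41 in vehicle. The 8 genes were chosen for their closeness to it, so that closeness is not a result.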

How the data were processed

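Gene expression was measured on 4 arrays, 1 per group, each of RNA pooled from 3 mice, amplified and labelled with biotin per the labels' protocols. The authors deposited log2 values for 45101 probe sets. Per the submitters' processing notes, RMA was run in Partek, with versions not given in the sources used. The log base was inferred from values between 2.06 and 14.85. Because RMA gives all arrays 1 distribution, a change common to most genes would be hidden. From these values, control probe sets were left out and genes were named by the platform annotation where a probe set had exactly 1 symbol. The probe set of highest mean stood for its gene, which counted as expressed if the brighter of the 2 arrays compared reached that array's median. Differences were counted at 1.5-fold and 2-fold, with pandas 2.3.3 and numpy 2.4.6, after the counting was tested on simulated data.

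The members and lists were chosen with earlier results of these data known. Named genes were all 10 members, the 8 nearest patterns and, from each list, genes among its 3 brightest or past 2-fold; others are marked in the text as named after their values were seen. The lists hold 128 genes besides the members, of which 12 are not analysed here. The number of arrays limits the precision. Alternatives were other probe sets, scalings and filters on dim genes.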

Additional observations from a re-analysis of the deposited data

Results flagged for a closer look

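Lmod1 had differences of opposite sign at different times, 0.05 at 12 hours against -0.08 at 2.5 days and -0.51 at 4.5 days, all from the same vehicle array. The difference between times was not tested, and the values at 12 hours and 2.5 days lay within the largest differences of the hybridisation controls.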

How the results depend on the processing

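The member medians against vehicle stayed below 0 under every alternative tried, and what moved them was mainly the scaling of the arrays. The scalings by the mean difference of the hybridisation controls and of the epithelial markers were chosen after seeing the data. The cause of each change was not tested beyond the shift that a scaling applies. At 12 hours the median was -0.52 centred on the hybridisation control median, -0.81 on the epithelial median and -0.67 on the epithelial mean. At 2.5 days it was -0.41, -0.90 and -0.88 under these, -0.47 on the hybridisation control mean and -0.51 when each gene was read from its middle probe set by size of difference. At 4.5 days it was -0.40, -0.90 and -0.95, and -0.48 on the hybridisation control mean. From 12 hours to 2.5 days it was 0.094 on the hybridisation control median, where that of expressed genes was 0.41, -0.083 on its mean and -0.10 on the epithelial median. From 2.5 to 4.5 days, where the value is near 0, it was 0.042 on the hybridisation control median, 0.022 on its mean, 0.033 on the epithelial median and -0.089 with the mean over probe sets.

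Members at least 1.5-fold lower numbered 3, 9 and 6 at 12 hours with the hybridisation control median, the epithelial median and the epithelial mean. At 2.5 days they numbered 3, 9 and 9, and at 4.5 days 1, 10 and 10, with 2 on the hybridisation control mean. The scalings shift all genes alike, so the members' distance from other genes does not change. A median scaling shifts by the difference between the median levels of the controls or markers on the 2 arrays. These shifts were 0.16, -0.19 and -0.24 (hybridisation controls) and 0.46, 0.30 and 0.26 (epithelial markers) at the 3 times. The medians of the single differences were not the same, at 0.03, -0.10 and -0.17 for the controls and 0.19, 0.23 and 0.29 for the markers. Filters on dim genes moved the share of expressed genes 1.5-fold lower to between 4.53% and 8.93%. No paired analysis was possible because each group is 1 array.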
